A study of Mus musculus with 10 samples.

Results

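Matrix metalloproteases (MMPs), the related ADAMTS and ADAMTS-like genes, and the tissue inhibitors of metalloproteases (TIMPs) were examined in the testes of young mice that lack the bile acid receptor FXR, encoded by Nr1h4. The members were all protein-coding genes whose symbols start with Mmp or Timp and a digit, or with Adamts, which gave 49 of the 30719 genes in the table (19552 of them protein coding). They comprised 21 Mmp, 19 Adamts, 5 Adamtsl and 4 Timp genes. The study sequenced RNA of whole testes at postnatal day 10 from 5 FXR-/- mice (libraries 8 to 12) and 5 wild-type (WT) mice (libraries 3, 4, 5, 6 and 9). Mice of both genotypes had a mixed background, 50% 129sv and 50% C57Bl, no other treatment is given, and each library came from 1 mouse. All were run on 1 flowcell. The labels leave unstated what was deleted from Nr1h4 and name no promoter or cell type that limits the deletion. Levels are given as CPM, counts per 1000000 of the scaled library total, and, where genes are compared with each other, as CPM per kilobase (kb) of exon.

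MMPs are zinc proteases that are made as inactive precursors and cut collagens, laminins and other matrix proteins outside the cell. At the cell surface, the membrane-bound protease MMP14 activates the gelatinase precursor proMMP2 in a complex in which TIMP2 serves as the bridge, whereas TIMP2 in excess inhibits MMP14. TIMP3 is held in the matrix and also inhibits ADAMTS proteases, which cut proteoglycans and procollagens. ADAMTS-like proteins share the other domains but have no protease domain. In the testis these enzymes and inhibitors come from Sertoli, peritubular and interstitial cells and take part in the turnover of the basement membrane and of cell junctions.

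Depth was 33037427 to 39655170 counts per library in FXR-/- testes and 32330029 to 35006180 in WT testes. The targeted gene, Nr1h4, had 8 to 13 counts in FXR-/- libraries and 13 to 26 in WT libraries. The ranges met at 13, the log2 fold change was -0.84 (edgeR adjusted p = 0.0347; DESeq2 adjusted p = 0.0710), and so few counts are a weak check of the labels. Markers of testis cells were present in every library. Their sums were 3451 to 5040 CPM in FXR-/- and 5094 to 6170 CPM in WT testes for Sertoli cells, 1233 to 1589 CPM in FXR-/- and 918 to 1368 CPM in WT testes for germ cells, and 399 to 707 CPM in FXR-/- and 575 to 842 CPM in WT testes for Leydig cells. FXR-/- library 8 had the lowest Sertoli and Leydig sums, and the other FXR-/- libraries had 582 to 707 CPM for Leydig cells. Of 13 Sertoli markers, 8 were lower and 1 was higher in FXR-/- testes. Marker changes are counted at an edgeR adjusted p under 0.05, where 7.71% of all tested genes were lower and 6.17% higher. Of 8 Leydig markers, 2 were lower and 0 higher, and of 7 germ cell markers, 1 was higher and 0 lower. Of 7 peritubular and smooth muscle markers, 1 was lower and 0 higher. Of 7 stromal fibroblast markers, 1 was higher and 0 lower. All 8 markers of duct and epididymal epithelium were higher in FXR-/- testes, with sums of 111 to 166 CPM against 62.0 to 81.1 CPM in WT testes, as were 7 of 8 adipocyte markers, with sums of 70.3 to 918 CPM against 21.4 to 126 CPM in WT testes. Every marker of the lists named in this paragraph had more than 3 counts in at least 1 library. In RNA from whole tissue, fewer cells of a type and less RNA per cell cannot be told apart.

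Among the 41 members that passed the filter on low counts, 3 changed, and all 3 were lower in FXR-/- testes: Mmp14, the membrane-bound activator of proMMP2, and the inhibitors Timp2 and Timp3. That was 7.32% of the tested members. Across all 18559 genes tested, 13.9% were called (edgeR quasi-likelihood test, two-sided, Benjamini-Hochberg adjusted p under 0.05), 7.71% as lower and 6.17% as higher. The members' share was below that of all genes, and this difference was not tested. With library totals alone in place of scaling factors, 1664 genes were called higher and 1040 lower over the whole table, against 1146 higher and 1430 lower in the analysis used here. The other 38 tested members did not pass the test, and 8 members had too few counts to be tested. Fitted log2 fold changes (FXR-/- over WT) were above 0 for 23 members and below 0 for 18, with a median of 0.02, beside 0.01 over all genes. Without adjustment, 7 of the 41 members had an edgeR p under 0.05, 4 of them lower and 3 higher. The share of all genes at that threshold was not counted. It cannot be under the 13.9% called after adjustment, so the 7 members are not shown to be an excess.

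Mmp14 (ENSMUSG00000000957, GRCm38 chr14:54431612-54445364, plus strand) had 156, 165, 196, 168 and 154 CPM in FXR-/- libraries 8 to 12, against 245, 228, 229.6, 219 and 208 CPM in WT libraries 3, 4, 5, 6 and 9. Every FXR-/- library was below every WT library. The means were 168 ± 16.9 CPM in FXR-/- testes, against 226 ± 13.7 CPM in WT testes (SD, n = 5 each), which was 1.35-fold lower in FXR-/- testes (log2 fold change -0.43, SE 0.0671, 95% interval -0.57 to -0.28, edgeR adjusted p = 0.00243). It was the 1 tested member whose groups did not overlap, where 11.6% of all tested genes did not overlap, 6.44% with FXR-/- lower. The call held in all 18 alternative analyses, other scalings and left-out libraries included, with log2 fold changes of -0.51 to -0.39. The Sertoli marker sums did not overlap between genotypes either, and their part in this result was not tested.

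Timp2 (ENSMUSG00000017466, chr11:118301069-118355740, minus strand), the inhibitor that links MMP14 to proMMP2, had 157, 171, 192, 167 and 164 CPM in FXR-/- libraries 8 to 12, against 214, 209.9, 188, 183 and 199 CPM in WT libraries 3, 4, 5, 6 and 9. FXR-/- library 10 lay above WT libraries 5 and 6, and the other FXR-/- libraries were below all WT libraries. The means were 170.1 ± 13.4 CPM in FXR-/- testes, against 199 ± 13.5 CPM in WT testes (SD, n = 5 each), 1.17-fold lower in FXR-/- testes (log2 fold change -0.23, SE 0.0613, 95% interval -0.36 to -0.09, edgeR adjusted p = 0.0317). The call was lost when any 1 of FXR-/- libraries 8, 9, 11 and 12 or WT libraries 3, 4 and 9 was left out, with adjusted p up to 0.0786.

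Timp3 (ENSMUSG00000020044, chr10:86300372-86349506, plus strand), the inhibitor bound to the matrix, had 123, 104, 115, 107 and 101 CPM in FXR-/- libraries 8 to 12, against 139, 137, 125, 127 and 122 CPM in WT libraries 3, 4, 5, 6 and 9. The groups overlapped only through FXR-/- library 8, just above WT library 9. The means were 110.0 ± 9.25 CPM in FXR-/- testes, against 129.9 ± 7.37 CPM in WT testes (SD, n = 5 each), 1.18-fold lower in FXR-/- testes (log2 fold change -0.24, SE 0.0604, 95% interval -0.37 to -0.11, edgeR adjusted p = 0.0234). This call was lost without FXR-/- library 9, 11 or 12, without WT library 4, and without FXR-/- libraries 9 and 10 together, with adjusted p up to 0.0628. The part of the Sertoli marker difference in the Timp2 and Timp3 values was likewise not tested. Exons of Timp3 share 1733 bases (21.3% of its exon length) with Syn3 on the opposite strand, which had 2.83 CPM in FXR-/- and 2.93 CPM in WT testes. Where the counting did not use strand, reads in that stretch cannot be told apart.

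**Figure D1:**
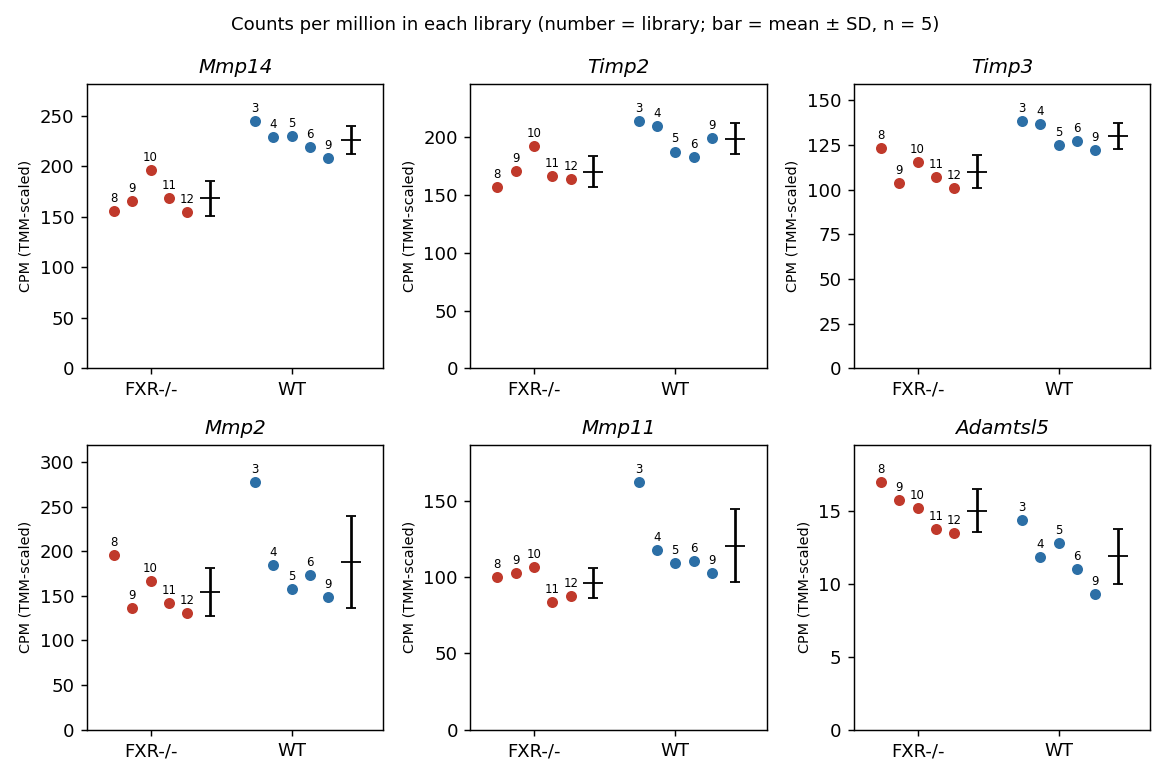
CPM of 6 members in each library, FXR-/- (red, left) and WT (blue, right), with library numbers and the mean ± SD of 5 libraries beside the points on linear axes. The FXR-/- points of Mmp14 all lie below the WT points, those of Timp2 and Timp3 overlap the WT points at the edge, and Mmp2 and Mmp11 each have WT library 3 above all others.

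The other inhibitors did not pass the test. Timp1, a secreted inhibitor of most MMPs, averaged 7.46 ± 0.812 CPM in FXR-/- testes, against 7.40 ± 0.816 CPM in WT testes (SD, n = 5 each), with a log2 fold change of 0.01 and a 95% interval of -0.21 to 0.24 (edgeR adjusted p = 0.952). Timp4 had 0.678, 1.69, 0.785, 0.495 and 0.565 CPM in FXR-/- libraries 8 to 12, against 0.512, 0.432, 0.909, 0.568 and 0.392 CPM in WT libraries 3, 4, 5, 6 and 9. FXR-/- library 9 stood well above the rest, and the log2 fold change of 0.58 (95% interval -0.20 to 1.36, edgeR adjusted p = 0.302) was 0.17 without it. Adipocyte markers were also highest in that library, with 918 CPM summed, and their part in its Timp4 level was not tested. Timp4 exons also share 90 bases (1.53% of their length) with Syn2 on the opposite strand, at 12.4 CPM in FXR-/- and 10.8 CPM in WT testes. The 4 TIMPs summed to 65.7 ± 4.0 CPM per kb in FXR-/- testes and 75.4 ± 4.67 in WT testes (SD, n = 5 each), with Timp2 and Timp3 lower and the other two without a call.

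Because MMP14 and TIMP2 act in 1 complex, their levels were also set side by side within each library. Timp2 per kb divided by Mmp14 per kb was 1.54, 1.58, 1.5, 1.52 and 1.62 in FXR-/- libraries 8 to 12, against 1.34, 1.41, 1.25, 1.28 and 1.47 in WT libraries 3, 4, 5, 6 and 9. All FXR-/- ratios were above all WT ratios, with means of 1.55 ± 0.0483 in FXR-/- testes and 1.35 ± 0.0889 in WT testes (SD, n = 5 each). The 3 other ratios computed overlapped between genotypes. Timp3 over Mmp14 ranged over 0.430 to 0.580 in FXR-/- testes and 0.398 to 0.438 in WT testes. Timp2 over Mmp2 ranged over 0.696 to 1.09 in FXR-/- testes and 0.669 to 1.16 in WT testes. Mmp2 over Mmp14 ranged over 1.46 to 2.22 in FXR-/- testes and 1.22 to 2.0 in WT testes. The ratios describe the values given above, are not a separate result and were not tested. How often ratios of other gene pairs keep the genotypes apart was not counted.

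Mmp2, the gelatinase that this complex activates, was the most abundant member per kb, with 45.8 ± 8.00 CPM per kb in FXR-/- testes, against 55.9 ± 15.3 in WT testes (SD, n = 5 each). It had 196, 136, 167, 142 and 130.2 CPM in FXR-/- libraries 8 to 12, against 277, 184, 158, 174 and 149 CPM in WT libraries 3, 4, 5, 6 and 9. The groups overlapped widely, and WT library 3 was far above all others. Its log2 fold change was -0.29 (SE 0.164, 95% interval -0.65 to 0.07, edgeR adjusted p = 0.262) and came to -0.11 without that library, so no difference was shown. The second gelatinase, Mmp9, averaged 3.76 ± 0.226 CPM in FXR-/- testes, against 3.92 ± 0.461 CPM in WT testes (SD, n = 5 each; edgeR adjusted p = 0.736).

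Per kb, the order of levels over both genotypes was Mmp2, Timp2, Mmp11, Mmp14, Adamts5, Mmp23, Adamts10, Adamts2, Timp3 and Adamts1. In the same unit, Timp2 had 43.7 ± 3.44 CPM per kb in FXR-/- testes, against 51.1 ± 3.48 in WT testes (SD, n = 5 each). Mmp11 had 34.6 ± 3.63 CPM per kb in FXR-/- testes, against 43.4 ± 8.60 in WT testes. Mmp14 had 28.2 ± 2.83 CPM per kb in FXR-/- testes, against 37.9 ± 2.31 in WT testes. Mmp2 and Timp2 lay within their spread of each other in both genotypes. So did Adamts5, at 20.4 ± 0.885 CPM per kb in FXR-/- testes, against 21.7 ± 2.22 in WT testes, and Mmp23, at 20.4 ± 3.67 CPM per kb in FXR-/- testes, against 19.1 ± 5.36 in WT testes. Averaged over the genotypes, 11 members were above 10 CPM per kb and 18 were under 1.

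**Figure D2:**
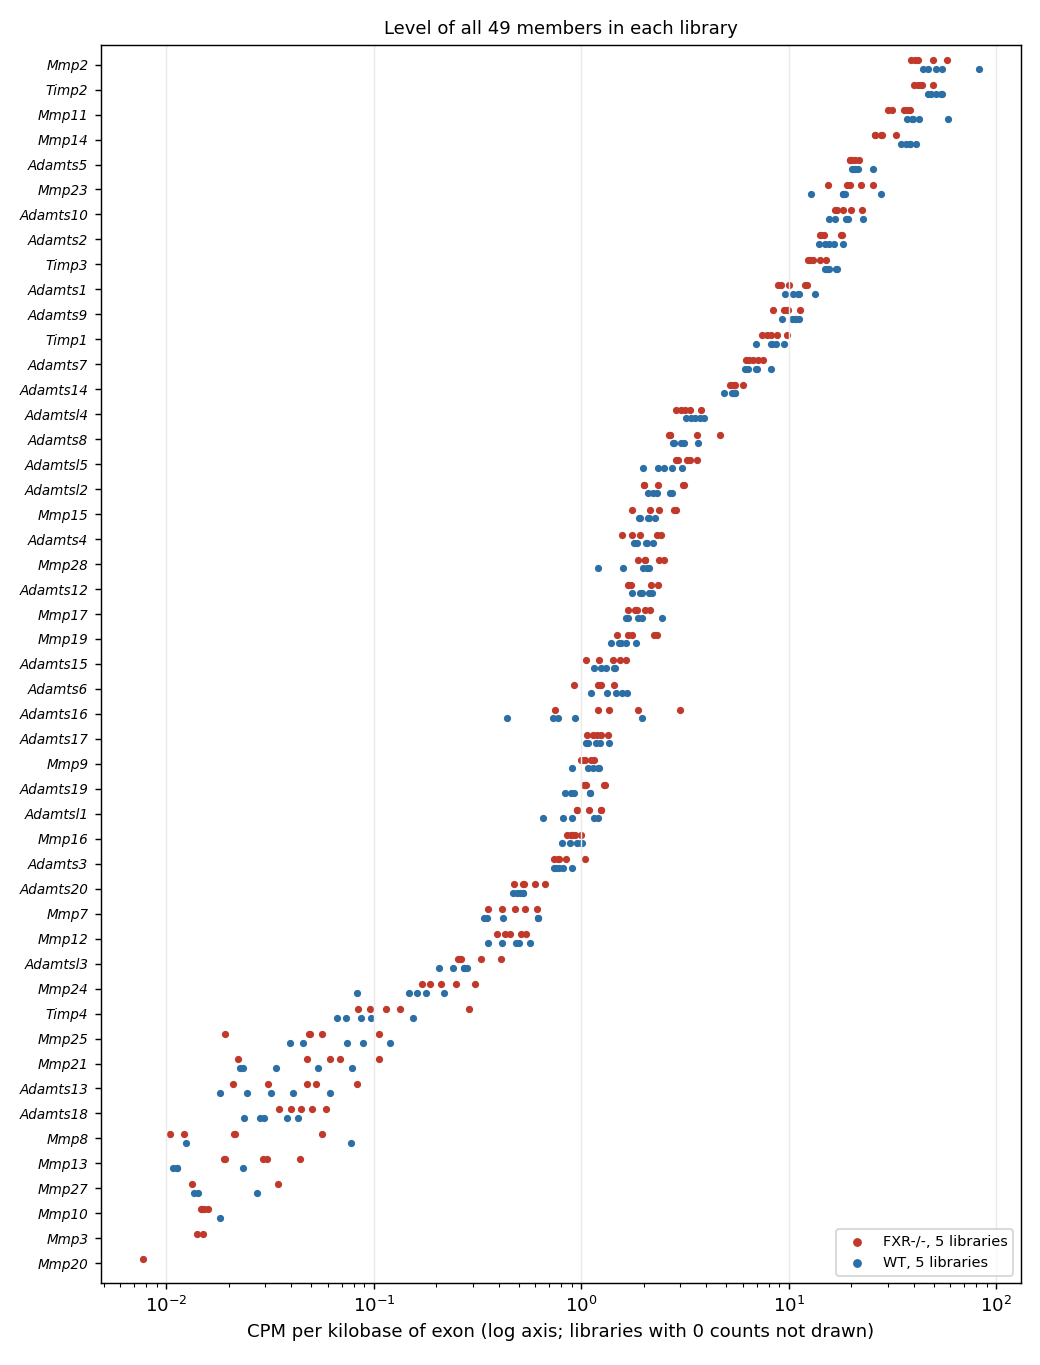
Level of all 49 members in each library, in CPM per kb of exon on a log axis, with FXR-/- (red) above WT (blue) in each row, rows ordered by mean level and libraries with 0 counts not drawn. The abundant end holds Mmp2, Timp2, Mmp11 and Mmp14, and the low end holds most MMPs of the chromosome 9 cluster.

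Many of the least abundant members lie in a single stretch of the genome. Of the 8 members that lie together on chromosome 9 (chr9:7272514-7699585, a span of 427.1 kb), which include collagenases, stromelysins and the macrophage elastase Mmp12, only Mmp7 and Mmp12 had enough counts to be tested. Mmp1b, which is annotated in the same stretch and overlaps the exons of Mmp12 by 157 bases on the opposite strand, was not analysed here. Mmp12 averaged 3.37 CPM in FXR-/- testes, against 3.35 CPM in WT testes (edgeR adjusted p = 0.985). Mmp7 averaged 0.511 CPM in FXR-/- testes, against 0.502 CPM in WT testes (edgeR adjusted p = 0.962). The collagenase Mmp8, which neutrophils store, had 1, 5, 1, 2 and 2 counts in FXR-/- libraries 8 to 12, against 0, 0, 6, 0 and 1 in WT libraries 3, 4, 5, 6 and 9. Neutrophil markers were also highest in WT library 5, with sums of 0.81 to 2.94 CPM in FXR-/- testes and 0.30 to 9.15 CPM in WT testes, and their part was not tested. The collagenase Mmp13 had 4, 3, 2, 3 and 2 counts in FXR-/- libraries 8 to 12, against 1, 1, 2, 1 and 0 in WT libraries 3, 4, 5, 6 and 9. Such counts were near the limit of detection at this depth, and no fold change is given for them. Mmp3, Mmp10, Mmp20, Mmp21, Mmp27 and Adamts13 were the other members left untested, and no untested member exceeded 15 counts in a library.

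Promoter sequences are shown for 2 genes of this cluster, both near 0 counts, and for the 3 genes that changed, because their windows hold different motifs. They are the 250 bases before the RefSeq transcription start (GRCm38.p6), 5′ to 3′ on the gene's own strand. Capitals mark matches, on either strand, to 4 motifs that do not overlap here. The AP-1 site was searched as TGANTCA and the GC box as GGGCGG. The TATA box was searched as TATAAA. The element that many nuclear receptors, FXR included, bind was searched as AGGTCA. The windows are chr9:7502092-7502341 (plus strand) for Mmp10, chr9:7272264-7272513 (plus) for Mmp13, chr14:54431348-54431597 (plus) for Mmp14, chr11:118355412-118355661 (minus) for Timp2 and chr10:86300162-86300411 (plus) for Timp3. GENCODE places the start of Timp2 and Timp3 further upstream, so that all 250 bases of the Timp2 window and the last 40 of the Timp3 window, its GC box included, lie inside the GENCODE gene.
Mmp10: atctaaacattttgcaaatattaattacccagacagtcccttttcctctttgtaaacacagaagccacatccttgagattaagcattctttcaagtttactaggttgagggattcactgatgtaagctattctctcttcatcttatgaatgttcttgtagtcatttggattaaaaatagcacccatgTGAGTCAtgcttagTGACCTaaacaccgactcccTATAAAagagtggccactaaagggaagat
Mmp13: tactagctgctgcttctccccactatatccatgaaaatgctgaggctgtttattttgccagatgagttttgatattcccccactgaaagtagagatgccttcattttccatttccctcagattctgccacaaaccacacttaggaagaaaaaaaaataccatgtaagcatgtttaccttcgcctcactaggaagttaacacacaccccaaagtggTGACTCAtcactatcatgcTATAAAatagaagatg
Mmp14: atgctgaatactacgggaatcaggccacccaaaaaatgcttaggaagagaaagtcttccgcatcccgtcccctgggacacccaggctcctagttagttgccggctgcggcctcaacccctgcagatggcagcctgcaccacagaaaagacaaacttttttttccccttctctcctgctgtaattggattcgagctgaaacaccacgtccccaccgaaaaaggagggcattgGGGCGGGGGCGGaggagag
Timp2: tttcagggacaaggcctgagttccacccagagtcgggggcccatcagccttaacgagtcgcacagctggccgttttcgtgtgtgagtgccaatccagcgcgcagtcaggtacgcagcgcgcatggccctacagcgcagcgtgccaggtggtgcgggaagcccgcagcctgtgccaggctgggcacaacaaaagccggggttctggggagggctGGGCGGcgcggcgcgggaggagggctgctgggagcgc
Timp3: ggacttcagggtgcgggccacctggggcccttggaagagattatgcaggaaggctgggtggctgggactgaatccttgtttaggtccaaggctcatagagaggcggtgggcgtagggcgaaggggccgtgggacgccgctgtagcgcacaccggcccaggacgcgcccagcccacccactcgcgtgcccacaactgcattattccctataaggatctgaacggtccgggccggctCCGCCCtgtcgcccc

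RefSeq windows were matched to 34 of the 49 members, 37 windows in all. The 15 members without a window all lay outside the cluster. They included Mmp2, Mmp9, Adamts5 and Adamts10, whose promoters were therefore not searched. A gene was counted where any of its windows held a match, whereas the shares over all windows are per window. TGANTCA was present in 6 of the 8 cluster genes and in 0 of the 26 other members with a window, against 6.75% of all 32851 windows. GGGCGG showed the opposite split, with 0 of 8 cluster genes and 20 of 26 others, against 32.7% of all windows. TATAAA was found in 5 of 8 cluster genes and 3 of 26 others, against 12.4% of all windows. Per window, TGANTCA was in 16.2%, GGGCGG in 54.1% and TATAAA in 21.6% of the member windows. The GC content was 37.2 to 53.2% in cluster windows and 53.6 to 80.0% in those of other members. Its median was 62.0% over member windows and 52.4% over all windows. As the GC ranges of the cluster and of the other members do not overlap, place in the cluster and GC content cannot be told apart in these matches. The 8 cluster genes are also neighbours of 1 family, so their matches are not 8 separate observations. Mmp14 carried 2 GC boxes side by side, Timp2 and Timp3 carried 1 each, and none of these 3 windows held an AP-1 site, a TATA box or the nuclear receptor element. The inverted repeat of AGGTCA with a single base between its arms, which FXR binds with its partner RXR, was in no member's window and in 2 of all windows. Only this exact sequence was searched. With so few matches anywhere, its absence from 37 windows says nothing about sites that differ from it. AGGTCA alone was in the windows of Adamtsl5, Mmp10 and Mmp12, against 14.0% of all windows. These matches describe the letters in the windows and say nothing of binding in these testes.

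Among the other membrane-type MMPs, Mmp15, Mmp16, Mmp17, Mmp24 and Mmp25, none passed the test. The class of 6 summed to 33.7 ± 2.92 CPM per kb in FXR-/- testes and 43.0 ± 2.26 in WT testes (SD, n = 5 each), most of it from Mmp14. Mmp24 averaged 1.05 ± 0.259 CPM in FXR-/- testes, against 0.738 ± 0.232 CPM in WT testes (SD, n = 5 each; log2 fold change 0.51, edgeR adjusted p = 0.178). Its exons share 637 bases (13.6% of their length) with BC029722 on the opposite strand, which had 10.7 CPM in FXR-/- and 9.83 CPM in WT testes, so its counts are uncertain.

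Mmp11, or stromelysin 3, which stromal cells make during tissue remodelling, had 100.2, 103, 107, 83.4 and 87.5 CPM in FXR-/- libraries 8 to 12, against 162, 118, 109, 111 and 103 CPM in WT libraries 3, 4, 5, 6 and 9. WT library 3 stood apart, WT libraries 4, 5 and 6 were also above every FXR-/- library, and the groups overlapped through WT library 9. The log2 fold change was -0.33 (SE 0.117, 95% interval -0.58 to -0.07, edgeR adjusted p = 0.0844). DESeq2 gave an adjusted p of 0.0441, and without WT library 3 the log2 fold change was -0.20. Its exons share 155 bases (5.58% of their length) with Chchd10 on the opposite strand, which was itself lower in FXR-/- testes (80.5 CPM, against 109.8 CPM in WT testes, edgeR adjusted p = 0.00430).

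Mmp23, a membrane-anchored MMP, averaged 47.7 ± 8.58 CPM in FXR-/- testes, against 44.7 ± 12.5 CPM in WT testes (SD, n = 5 each; edgeR adjusted p = 0.765). The 3 tested members of its mixed class of other MMPs, Mmp19, Mmp23 and Mmp28, all had fitted values above 0, of 0.09 to 0.27, and none passed the test. Exons of Mmp19 share 789 bases (22.3% of their length) with Tmem198b on the opposite strand, at 21.4 CPM in FXR-/- and 22.5 CPM in WT testes. Those of Mmp28 share 466 bases (12.0%) with 1700020L24Rik on the opposite strand, at 1.52 CPM in FXR-/- and 1.30 CPM in WT testes. The counts of both are therefore uncertain.

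No ADAMTS gene was called in any of its 3 groups. Of the 7 that cut proteoglycans, Adamts5, an aggrecan- and versican-cleaving protease, was the most abundant per kb and had 220.5 ± 9.55 CPM in FXR-/- testes, against 234 ± 24.0 CPM in WT testes (SD, n = 5 each; log2 fold change -0.09, 95% interval -0.22 to 0.05, edgeR adjusted p = 0.403). WT library 3 was again the highest, at 276 CPM. Adamts2, the main procollagen I N-proteinase, averaged 148 ± 18.3 CPM in FXR-/- testes, against 148 ± 15.5 CPM in WT testes (log2 fold change -0.0027, 95% interval -0.20 to 0.19, edgeR adjusted p = 0.990), and the other members of its class, Adamts3 and Adamts14, also did not pass. Adamts10, which binds fibrillin microfibrils, averaged 156 ± 20.1 CPM in FXR-/- testes, against 154 ± 22.5 CPM in WT testes (log2 fold change 0.02, 95% interval -0.21 to 0.25, edgeR adjusted p = 0.908). The intervals of Adamts2 and Adamts10 lie within 1.5-fold in either direction, and the sign of either turned in some alternatives. Summed over the ADAMTS proteases, levels were 103 ± 8.97 CPM per kb in FXR-/- testes and 104 ± 10.1 in WT testes (SD, n = 5 each).

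Adamts16, a protease that is expressed in the developing gonad and kidney, had 20.5, 5.08, 12.8, 9.32 and 8.19 CPM in FXR-/- libraries 8 to 12, against 13.5, 6.39, 5.27, 4.97 and 3.01 CPM in WT libraries 3, 4, 5, 6 and 9. It was the one tested member with a fitted change of at least 1.5-fold (log2 fold change 0.75, SE 0.406, edgeR adjusted p = 0.237), and also the most variable, with a within-group SD of 0.76 on the log2 scale. The groups overlapped, and the fitted log2 fold change ranged over 0.42 to 1.18 when single libraries were left out, with no call. Adamts19, another gonad-expressed member, averaged 16.1 CPM in FXR-/- testes, against 13.6 CPM in WT testes (edgeR adjusted p = 0.149).

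The 5 ADAMTS-like genes summed to 10.3 ± 1.11 CPM per kb in FXR-/- testes and 9.68 ± 0.787 in WT testes (SD, n = 5 each), and 4 of them were fitted above 0. Adamtsl5, a microfibril-associated member, had 17, 15.8, 15.2, 13.8 and 13.5 CPM in FXR-/- libraries 8 to 12, against 14.4, 11.9, 12.8, 11.0 and 9.34 CPM in WT libraries 3, 4, 5, 6 and 9. The groups overlapped through the WT library 3 value, which was above 2 FXR-/- libraries. The log2 fold change was 0.34 (SE 0.110, 95% interval 0.10 to 0.58, edgeR adjusted p = 0.0621), and it passed in 3 of the 18 alternatives, with library totals alone, with DESeq2 (adjusted p = 0.0277) and without WT library 3 (edgeR adjusted p = 0.0261). Adamtsl4, the most abundant of the class per kb, averaged 13.6 ± 1.49 CPM in FXR-/- testes, against 14.9 ± 1.2 CPM in WT testes (SD, n = 5 each; edgeR adjusted p = 0.310).

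**Figure D3:**
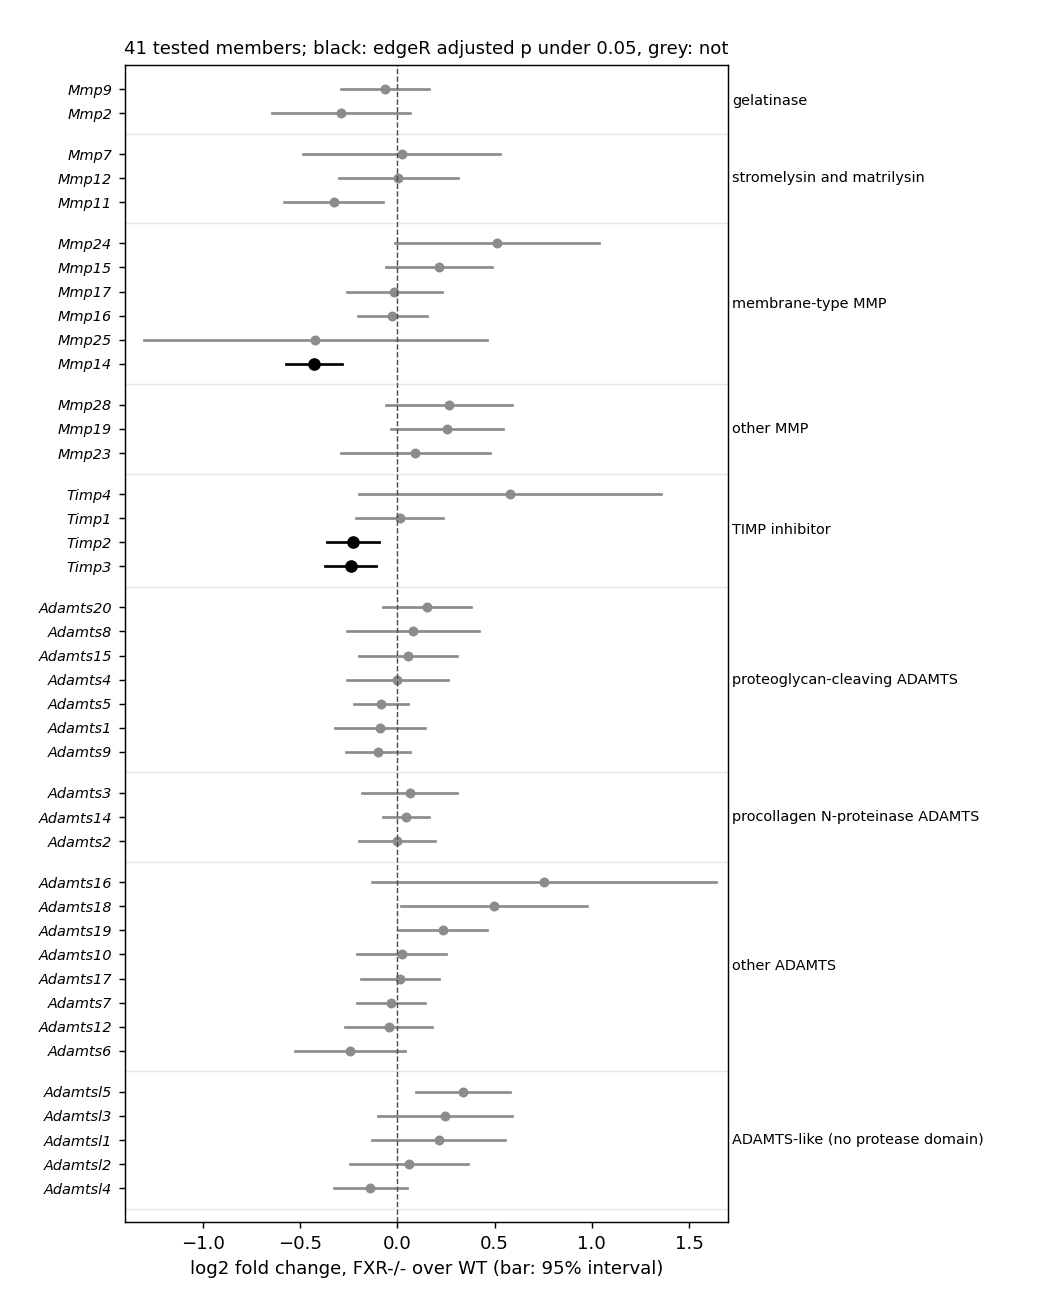
Log2 fold changes (FXR-/- over WT) of the 41 tested members with 95% intervals, grouped by role, in black for the 3 members that passed an adjusted p of 0.05 and in grey for the rest. Mmp14, Timp2 and Timp3 lie to the left of 0 with narrow intervals, whereas Adamts16 and Timp4 have wide intervals that include 0.

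Genes around the family moved in both directions. Of 26 tested activators, inhibitors and receptors of matrix proteolysis, 3 rose and 3 fell, and 20 did not pass the test (median log2 fold change 0.03), where 13.9% of all genes tested were called, 7.71% lower and 6.17% higher. Spock2, a testican whose relatives inhibit membrane-type MMPs, was lower, at 600.4 ± 75.9 CPM in FXR-/- testes, against 773 ± 43.7 CPM in WT testes (SD, n = 5 each; edgeR adjusted p = 0.0113). Lrp1, the endocytic receptor that clears MMP and TIMP complexes, averaged 513 ± 39.1 CPM in FXR-/- testes, against 606 ± 30.6 CPM in WT testes (edgeR adjusted p = 0.0173). Furin, the convertase that cuts the propeptide of MMP14, averaged 136 ± 9.52 CPM in FXR-/- testes, against 159 ± 8.16 CPM in WT testes (edgeR adjusted p = 0.0202). These 3 genes were abundant and all lower in FXR-/- testes. Tfpi2, a serine protease inhibitor of the matrix, rose at a low level and averaged 0.737 CPM in FXR-/- testes, against 0.352 CPM in WT testes (log2 fold change 1.06, edgeR adjusted p = 0.0134). Cd44, the hyaluronan receptor that anchors MMPs at the cell surface, averaged 9.96 CPM in FXR-/- testes, against 7.25 CPM in WT testes (edgeR adjusted p = 0.0335). Spock1, a testican related to Spock2, was higher, at 1.30 CPM in FXR-/- testes, against 0.955 CPM in WT testes (log2 fold change 0.44, edgeR adjusted p = 0.0443), and lost its call whichever single library was left out (adjusted p up to 0.109). Spock2 and Tfpi2 kept their calls with any single library left out, Lrp1 lost its call without FXR-/- library 11, Furin without FXR-/- library 11 or 12, and Cd44 without any 1 of FXR-/- libraries 8, 9 and 10 and WT libraries 4, 6 and 9 (adjusted p up to 0.0739). Reck, a membrane-anchored inhibitor of MMP14, averaged 60.7 ± 5.20 CPM in FXR-/- testes, against 66.9 ± 1.33 CPM in WT testes (SD, n = 5 each) and did not pass (edgeR adjusted p = 0.112).

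Of 16 other tested metzincin proteases, 2 rose and 3 fell (median 0.04), beside the same 13.9% called over all genes. Tll2, a tolloid-like astacin, averaged 2.43 CPM in FXR-/- testes, against 3.81 CPM in WT testes (log2 fold change -0.65, edgeR adjusted p = 0.0187). Adam17, the sheddase of TNF and EGF ligands, averaged 121 CPM in FXR-/- testes, against 136 CPM in WT testes (edgeR adjusted p = 0.0387). Adam9 averaged 57.5 CPM in FXR-/- testes, against 67.8 CPM in WT testes (edgeR adjusted p = 0.0392). The 2 genes that rose were Adam15 and Adam22. Adam15 averaged 45.5 CPM in FXR-/- testes, against 40.1 CPM in WT testes (edgeR adjusted p = 0.0342). Adam22 averaged 16.1 CPM in FXR-/- testes, against 13.1 CPM in WT testes (edgeR adjusted p = 0.0440). Among the 10 fits that left out 1 library, Tll2 lost its call without FXR-/- library 11 alone, whereas Adam15 was called in 4 and Adam9, Adam17 and Adam22 in 2 each. All 4 of these ADAM genes lost their calls without FXR-/- library 8, 9, 11 or 12 or WT library 4, with adjusted p up to 0.106.

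Of 26 tested substrates of these enzymes, 1 rose and 2 fell, and 23 did not pass (median -0.01), again beside 13.9% called over all genes. Lum, the collagen-binding proteoglycan lumican, averaged 58.9 CPM in FXR-/- testes, against 41.7 CPM in WT testes (edgeR adjusted p = 0.0228). It is also the 1 stromal fibroblast marker counted as higher above, so the 2 counts are not separate. Hapln2, a hyaluronan and proteoglycan link protein, averaged 0.378 CPM in FXR-/- testes, against 1.05 CPM in WT testes (log2 fold change -1.47, edgeR adjusted p = 0.00141). Spp1, or osteopontin, averaged 37.7 CPM in FXR-/- testes, against 60.8 CPM in WT testes (log2 fold change -0.69, edgeR adjusted p = 0.0256). Hapln2 kept its call with any single library left out, Lum lost it without WT library 5 or 9, and Spp1 lost it without FXR-/- library 11 or 12 or WT library 3, 4 or 9. The ADAMTS substrates versican and aggrecan did not pass. Vcan averaged 56.7 CPM in FXR-/- testes, against 46.9 CPM in WT testes (edgeR adjusted p = 0.102). Acan averaged 7.95 CPM in FXR-/- testes, against 8.65 CPM in WT testes (edgeR adjusted p = 0.529). The Sertoli, duct and adipocyte marker differences stood beside the calls in all 3 lists, and their part was not tested.

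Libraries within a genotype differed from each other for many members at once. WT library 3 had the highest value among WT libraries in 19 of the 41 tested members and WT library 9 the lowest in 22. Among FXR-/- libraries, library 8 was highest in 17 and library 12 lowest in 16. WT library 3 was also the highest WT library for the stromal fibroblast markers and the lowest for the germ cell markers. WT library 9 was the lowest WT library for the stromal fibroblast and peritubular markers. Among FXR-/- libraries, library 8 was lowest for Sertoli and Leydig markers and highest for peritubular markers. Library 12 was lowest there for stromal fibroblast markers and highest for germ cell markers. The part of cell makeup in the member values was not tested.

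**Figure D4:**
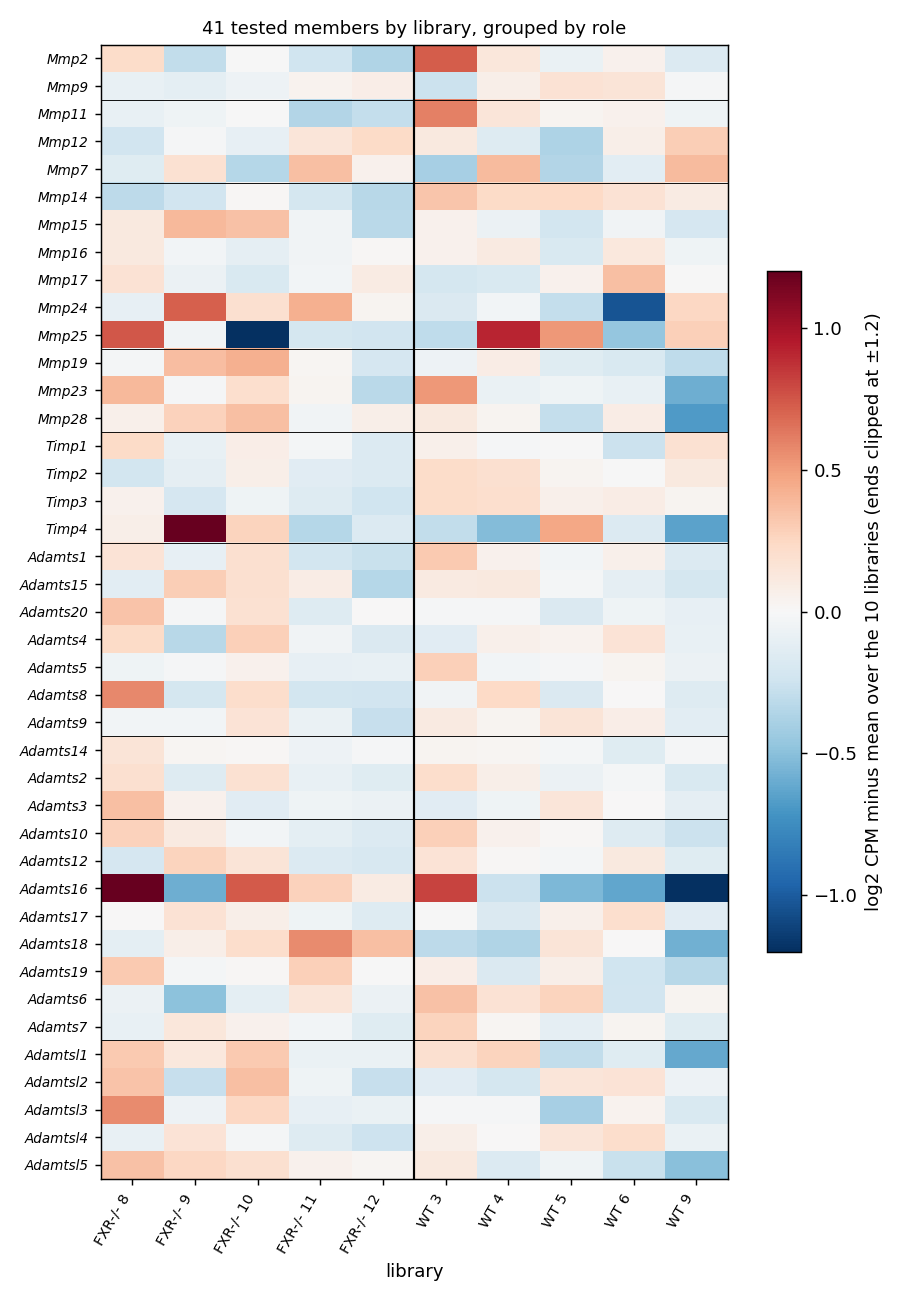
Deviation of each tested member from its mean over all libraries, on the log2 scale, by library, with FXR-/- libraries 8 to 12 left of WT libraries 3, 4, 5, 6 and 9. Mmp14, Timp2 and Timp3 are below the mean in most FXR-/- libraries, and WT library 3 is above the mean for many members.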

How the data were processed

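RNA of 10 testes was sequenced, 5 of each genotype. The tools named in the submitters' processing notes are TopHat2 2.0.10, Bowtie2 2.1.0, Bowtie, CASAVA and FastQC 0.10.1, and the build is mm10. Which program counted reads, with which annotation and strand setting, is not given in the sources used here. Whole-number counts, deposited by the authors for each gene and library, were the input of every test. The authors' normalized values had lost their decimal marks and were not used.

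In edgeR 4.0.16 (R 4.3.3), filterByExpr removed low genes, TMM set the library scaling, and genotypes were compared by the quasi-likelihood F-test (two-sided, genotype as the only term, Benjamini-Hochberg adjustment over 18559 genes). The code was tested on simulated data. A gene was called at an adjusted p under 0.05, and its SE is the absolute log2 fold change divided by the square root of F. CPM used TMM-scaled totals. Exon lengths and positions came from GENCODE M21 on GRCm38, which held all 49 members. Alternatives used DESeq2 1.42.0, limma 3.58.1 (voom), other scalings and filters, and left-out libraries.

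Named members were those called, the 4 most abundant per kb, all Timp genes and the most abundant of each role class. In each list of other pathway genes, up to 5 called genes with the smallest p were named. Adamts16, Adamts19, Adamtsl5, Mmp7, Mmp9, Mmp12, Mmp13, Mmp24, Reck, Spock1, Vcan and Acan were added after their values were seen. Members, roles and lists were chosen with earlier results of these data known.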

Additional observations from a re-analysis of the deposited data

Results flagged for a closer look

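In 4 of the 82 sets of 5 libraries examined (41 tested members in each genotype), 1 library lay far from the other 4 by Dixon's criterion, which chance alone meets in about 1 of 20 sets. WT library 3 accounted for 3 of them. It had 277 CPM of Mmp2, where the other WT libraries had 149 to 184 CPM. It had 162 CPM of Mmp11, where the others had 103 to 118 CPM. It had 276 CPM of Adamts5, where the others had 216 to 232 CPM. In FXR-/- library 9, Timp4 was at 1.69 CPM, where the other FXR-/- libraries had 0.495 to 0.785 CPM. None of these 4 genes was called.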

How the results depend on the processing

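Mmp14 was called in every alternative, and Timp2 and Timp3 in every one that kept all libraries. The number of members called was 3 in the analysis used and 3 to 5 when all libraries were kept: DESeq2 called 5, 1 of them higher, and library totals alone also gave 1 higher. With single libraries left out it was 1 to 3 (1 to 3 lower, 0 to 1 higher), and without FXR-/- libraries 9 and 10 it was 2. Over all genes, 2576 were called, against 1427 to 2867 with single libraries left out (1427 without FXR-/- library 11, 1601 without WT library 4 and 1635 without FXR-/- library 12) and 3485 with DESeq2. The activator and receptor list then had 3 to 5 calls, the other metzincins 0 to 5 and the substrates 2 to 4. Signs turned only for members near 0 with no call. With single libraries left out, log2 fold changes spanned -0.0489 to 0.10 for Adamts10, -0.0546 to 0.0524 for Adamts2, -0.0217 to 0.26 for Mmp23 and -0.0476 to 0.0613 for Timp1. Adamts2 was at 0.0128 with upper-quartile factors, 0.0340 with library totals, 0.0013 with no filter and 0.0034 with a mean of at least 1 CPM. The cause of these shifts was not tested. No paired analysis was made because the labels name no litters or pairs of mice. Depth limits the 8 untested members, none of which exceeded 15 counts in a library.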

Other observations

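Plasminogen (Plg), the precursor of the protease plasmin that can activate several MMPs, was in the list of activators but did not pass the filter on low counts. It had 13, 10, 11, 19 and 14 counts in FXR-/- libraries 8 to 12, against 1, 3, 2, 3 and 4 counts in WT libraries 3, 4, 5, 6 and 9. Every FXR-/- library was above every WT library, where 11.6% of all tested genes did not overlap between genotypes in either direction. With no filter on low counts, edgeR gave a log2 fold change of 2.15 (SE 0.349, adjusted p = 0.00195). Without FXR-/- libraries 9 and 10, Plg passed the filter only through FXR-/- libraries 8, 11 and 12, where it was high. That fit gave 2.35 (edgeR adjusted p = 0.00288), reuses the same libraries and is not separate support. The gene was singled out after its values were seen, so neither p is an independent test of it.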
